A study of Homo sapiens with 18 samples.

Results

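The ribosome biogenesis genes described here are 47 genes of the nucleolus, taken by name from the gene table of an RNA-seq study of ACAT1 knockdown in bladder cancer cells. They encode RNA polymerase I subunits and the factors that modify, cut and assemble ribosomal RNA, a function known to be driven by the transcription factor MYC. All 47 were found among the 39496 genes of the table, and all 47 were among the 20144 genes that passed the filter on low counts. The study transfected UM-UC-3 and T24, established human bladder transitional cell cancer lines recorded as wild type, with a control siRNA (siNC) or with siACAT1-1 or siACAT1-2, which target ACAT1 at different sequences. ACAT1 encodes a mitochondrial acetyl-CoA acetyltransferase. Each of the 6 groups held 3 libraries described as independent experiments, 18 libraries in all, with 25163490 to 34417230 counted reads each. Every comparison rests on transfected cultures of these cell lines, and each cell line is a single model.

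Ribosome production starts when RNA polymerase I copies the ribosomal DNA repeats into a long precursor RNA. Small nucleolar RNPs of the box C/D type add methyl groups to this precursor and those of the box H/ACA type convert uridines to pseudouridines. The small subunit processome and the large subunit assembly factors then cut and fold the RNA around ribosomal proteins. Growing tumour cells commonly run this pathway at a high rate. The members were grouped by role into RNA polymerase I (3 genes), box C/D snoRNP (3), box H/ACA snoRNP (3), nucleolar scaffold and regulator (7), small subunit assembly (14) and large subunit assembly (17).

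The promoters of the members were read from the RefSeq promoter table (GRCh38.p14), which held 39 of the 47. BOP1, DDX18, NOLC1, NOP58, RRP12, RRP1B, RRS1 and TCOF1 had no entry. The E-box CACGTG, the letters that MYC is known to bind and identical on both strands, was present in 16 of the 39 windows, or 41.03%. It was present in 7.43% of all 27305 promoter windows of the same length, and in 10.64% of the 7961 windows of genes with a mean of at least 1 RPKM. The ETS core CCGGAAG, searched on both strands, was in 13 member windows (33.33%) against 10.67% of all windows and 21.15% of the windows of expressed genes. TGCGCA, part of the NRF1 site and identical on both strands, was in 10 member windows (25.64%) against 8.42% and 14.99%. Matches of different motifs were counted separately even where they share bases. Of the 17 E-boxes that could be shown with their flanks, in 15 genes, 14 began within 30 bases of the annotated start. Of the 17, 8 are shown, those of FBL, IMP4 and NOP10, called below over the comparisons with siNC in the block model, and of WDR43, UTP20 and NOP14, as examples of members that differed between the ACAT1 siRNAs. The E-box is in capitals, on the strand of the gene.
FBL, chr19:39846356-39846385, minus strand: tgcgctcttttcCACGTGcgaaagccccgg
IMP4, upstream, chr2:130342682-130342711, plus strand: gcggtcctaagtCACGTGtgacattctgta
IMP4, at the start, chr2:130342900-130342929, plus strand: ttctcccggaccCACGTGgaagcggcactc
NOP10, upstream, chr15:34343289-34343318, minus strand: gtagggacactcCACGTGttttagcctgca
NOP10, at the start, chr15:34343130-34343159, minus strand: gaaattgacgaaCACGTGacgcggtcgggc
WDR43, chr2:28894658-28894687, plus strand: cgcacggacgaaCACGTGgctgcagcgggg
UTP20, chr12:101280083-101280112, plus strand: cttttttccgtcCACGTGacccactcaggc
NOP14, chr4:2963374-2963403, minus strand: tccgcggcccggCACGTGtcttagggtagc
The promoters of DDX21 and TSR1, which differed between the ACAT1 siRNAs, held no CACGTG in these windows but held CCGGAAG, here in capitals.
DDX21, chr10:68956099-68956127, plus strand: tcctgcttcccCCGGAAGtgccttgctac
TSR1, chr17:2336468-2336496, minus strand: cttggaggggaCCGGAAGcgcttgtcctg
TSR1, nearer the start, chr17:2336448-2336476, minus strand: cttgtcctggcCCGGAAGcagtgctgact
These matches describe letters in a window and were not tested for binding.

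Expression levels were compared as RPKM, read counts scaled to transcript length and library size, as the authors deposited them, so that genes of different length could be ordered. NPM1 (nucleophosmin) and NCL (nucleolin), which scaffold the nucleolus, stood far above the rest, with means over the 18 libraries of 1350 and 1248 RPKM. DKC1, the pseudouridine synthase, followed at 278 RPKM and NOLC1, a chaperone of snoRNPs, at 190 RPKM. NPM1 and NCL together made up 45.1% to 54.1% of the RPKM summed over the 47 genes in the 18 libraries. NPM1 has 45 named pseudogenes in the table, so that reads of these near-identical copies could have been assigned among them. The lowest members were POLR1B (3.23 RPKM), IMP3 (3.67), WDR12 (5.37) and UTP15 (6.23). IMP3 shares 59.3% of its exonic bases with genes annotated on the opposite strand, and PPAN 59.8% with PPAN-P2RY11 and P2RY11 together on its own strand, so that their counts are uncertain. The strand setting of the counting was not stated.

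The summed RPKM of the 47 genes was 5173 ± 457 (SD, n = 3) in UM-UC-3 siNC, 5287 ± 200 with siACAT1-1 and 4856 ± 329 with siACAT1-2. In T24 it was 5641 ± 658 with siNC, 5041 ± 545 with siACAT1-1 and 4888 ± 599 with siACAT1-2. The groups overlapped within each cell line. Paired by replicate number, the sum was below that of siNC in 6 of 6 pairs in T24 and in 4 of 6 in UM-UC-3, and it was not tested. In these bulk cultures, fewer cells that express a gene and less of its RNA per cell cannot be told apart. Libraries that carried the same replicate number deviated together, and the numbers were therefore also fitted as a block within each cell line. In T24, 36 of the 47 members had their highest mean log2 CPM (counts scaled by TMM) in replicate number 1 and 27 their lowest in number 3. On the RPKM scale these counts were 27 and 30. Over the members, the replicate number accounted for a median of 62.8% of the variance within T24 (44% over all genes tested) and the siRNA for 27.7% (25.5%). In UM-UC-3 the replicate number accounted for a median of 44.5% (38.7% over all genes) and the siRNA for 28.4% (25.1%). With so few libraries, shares of this kind arise even where a factor has no effect, and they were not tested.

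**Figure D1:**
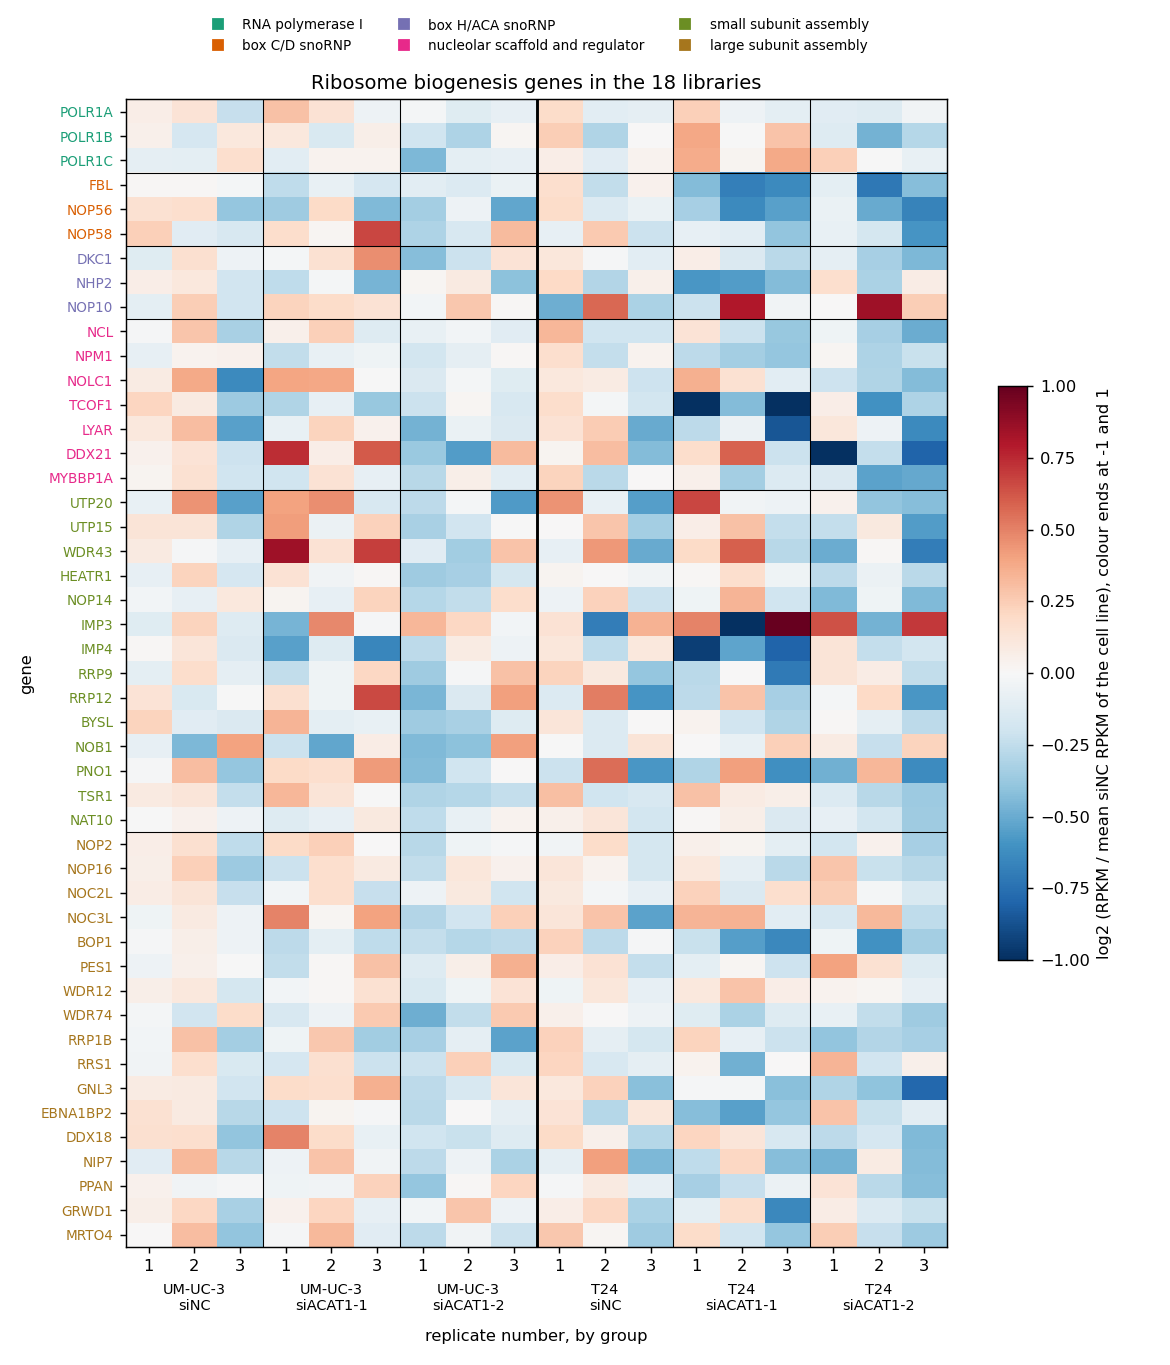
Each row is 1 of the 47 genes and each column 1 of the 18 libraries; colour gives log2 of the RPKM over the mean siNC RPKM of the same cell line, and the colour of the gene name gives its role. Columns of the same replicate number share shades across siRNAs within a cell line, as in T24, where on this scale 30 members were lowest in number 3, and the DDX21, WDR43 and TCOF1 rows differ between siACAT1-1 and siACAT1-2.

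The target and the labels were checked with ACAT1, which fell by 4.09 on the log2 scale over the 4 comparisons with siNC (adjusted p = 2.1e-12). MYC, the factor behind the choice of these genes, had 39.5, 18.9 and 31.5 RPKM in UM-UC-3 siNC, 59.3, 21.7 and 49.8 with siACAT1-1, and 13.8, 15.4 and 37.7 with siACAT1-2. In T24 the MYC RPKM were 9.69, 32.6 and 14.4 with siNC, 11.4, 27.6 and 14.8 with siACAT1-1, and 9.79, 19.7 and 11.3 with siACAT1-2. The log2 fold change of MYC over the 4 comparisons was −0.11 ± 0.29 (SE) (adjusted p = 0.95, and 0.76 with the replicate block), with overlapping groups. Of the urothelial markers, UPK3A and UPK1B were at or near 0 in all groups, so that both lines lacked these defining markers, whereas KRT18 averaged 101 to 243 RPKM over the groups. Some other epithelial markers separated the lines, with means of 275 RPKM for KRT7 (371, 140 and 316) and 1.71 for EPCAM in T24 siNC against 4.12 and 0.039 in UM-UC-3 siNC. KRT8, KRT19, GATA3 and PPARG also had higher means in T24 siNC. TP63 and UPK1A had higher means in UM-UC-3 siNC (0.12 and 0.17) than in T24 siNC (0.0032 and 0.070). In UM-UC-3 and T24 siNC, CDH1 was 0, KRT5 averaged 0.016 and 0.0078, and UPK2 0.46 and 0.58 RPKM. The mesenchymal markers averaged 268 and 220 RPKM for VIM, and 4.03 and 12.7 for CDH2. Of the markers of other cell types, PTPRC, CD3E and PECAM1 were near 0. CD68 averaged 140 RPKM in UM-UC-3 siNC and had 15.7, 121 and 16.3 RPKM in T24 siNC.

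The main question was whether knockdown of ACAT1 moved these genes. Averaged over the 4 comparisons with siNC, no member was called by the main model, which has no block, at the adjusted threshold of 0.05 that 0.223% of all genes passed. Unadjusted, 5 members were under 0.05, all lower, while 10.9% of all genes were, and DESeq2 called none (1.58% of all genes). With the replicate block, 7 members passed, 14.9% of the 47 against 12.4% of all genes. Of these, 6 were lower, TCOF1, NOP56, IMP4, FBL, BOP1 and NPM1, against 6.46% of all genes, and NOP10 was higher, against 5.95%. The share called was thus near that of the genes at large, with more of the calls on the lower side. The median of the members was −0.06 without the block, with 38 of 47 below 0, and −0.07 with it, with 35 below 0. With 1 library left out the median without the block ran from −0.13 (without T24 siNC replicate 3) to −0.02 (without T24 siNC replicate 1), and single libraries deviated from their group with an SD of 0.168 in the median of the members. The median of all genes tested was within 0.01 of 0 in both models. The 4 comparisons share the siNC libraries of each cell line, so that they are not independent of each other.

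FBL (fibrillarin, chr19:39834458-39846414, the methyltransferase of the box C/D snoRNP) had 123, 123 and 120 RPKM in the 3 UM-UC-3 siNC libraries, 103, 116 and 109 with siACAT1-1, and 113, 111 and 117 with siACAT1-2. In T24 it had 72.7, 54.4 and 66.7 RPKM with siNC, 47.9, 40.2 and 41.6 with siACAT1-1, and 60.5, 39.4 and 48.0 with siACAT1-2. All siACAT1 libraries lay below all siNC libraries in UM-UC-3, and in T24 those of siACAT1-1 did, while siACAT1-2 overlapped siNC. FBL moved by −0.31 ± 0.06 (SE) with the block (adjusted p = 0.0028) and by the same amount with an SE of 0.11 without it (adjusted p = 0.31). It was lower in all 12 pairs of siACAT1 and siNC libraries that share a cell line and a replicate number. Each siNC library enters pairs with both siRNAs. Pair counts here and below describe members chosen from the same libraries and were not counted over all genes.

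NOP56, a core protein of the same snoRNP, had 86.6, 87.5 and 59.6 RPKM in UM-UC-3 siNC, 60.8, 88.8 and 57.2 with siACAT1-1, and 61.5, 75.3 and 54.2 with siACAT1-2. In T24 its RPKM were 90.5, 72.3 and 75.9 with siNC, 63.3, 51.3 and 54.7 with siACAT1-1, and 76.0, 56.0 and 50.1 with siACAT1-2. Groups overlapped except siACAT1-1 in T24, where each library lay below each siNC library. NOP56 moved by −0.34 ± 0.07 with the block (adjusted p = 0.0030, without it 0.41) and was lower in 11 of 12 pairs. The third box C/D member, NOP58, had a value of −0.06 ± 0.09 with the block (adjusted p = 0.74).

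BOP1, which with PES1 and WDR12 forms a complex needed for the large subunit, had 42.6, 44.8 and 41.3 RPKM in UM-UC-3 siNC, 35.8, 40.1 and 36.1 with siACAT1-1, and 36.3, 35.3 and 35.8 with siACAT1-2. The siACAT1 libraries of UM-UC-3 all lay below those of siNC. The T24 libraries gave 33.4, 23.8 and 28.4 RPKM with siNC, 24.4, 19.5 and 18.3 with siACAT1-1, and 27.7, 18.8 and 22.6 with siACAT1-2, with overlap in both cases. BOP1 moved by −0.31 ± 0.06 with the block (adjusted p = 0.0027, without it 0.34) and was lower in 12 of 12 pairs. The value of its partner PES1 was 0.04 ± 0.07 (adjusted p = 0.78).

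TCOF1 (treacle, chr5:150357639-150400308), a nucleolar protein that recruits RNA polymerase I, had 50.0, 45.9 and 33.6 RPKM in UM-UC-3 siNC, 35.1, 40.8 and 33.1 with siACAT1-1, and 37.2, 43.8 and 38.6 with siACAT1-2, all overlapping. In T24 it had 52.1, 45.6 and 40.6 RPKM with siNC, 23.2, 34.1 and 15.1 with siACAT1-1, and 48.3, 30.3 and 37.2 with siACAT1-2. The T24 siACAT1-1 libraries all lay below siNC, and replicate 3 was the lowest of the 18. TCOF1 moved by −0.39 ± 0.11 with the block (adjusted p = 0.026, without it 0.37) and was lower in 10 of 12 pairs. The study displayed TCOF1 from these same libraries, so its direction is not independent evidence.

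IMP4, of the small subunit processome, had 7.08, 7.62 and 6.36 RPKM in UM-UC-3 siNC, 4.82, 6.43 and 4.48 with siACAT1-1, and 5.87, 7.44 and 6.79 with siACAT1-2. Its T24 levels were 12.4, 9.61 and 12.4 RPKM with siNC, 5.97, 7.94 and 6.59 with siACAT1-1, and 12.6, 9.73 and 10.1 with siACAT1-2. The T24 siACAT1-1 libraries stood apart from siNC, whereas the other groups overlapped. IMP4 moved by −0.33 ± 0.09 with the block (adjusted p = 0.018, without it 0.32). NPM1 moved least of those called, by −0.17 ± 0.06 (adjusted p = 0.048, without the block 0.55). It was lower in 12 of 12 pairs, and its call was kept in 3 of 18 fits with 1 library left out.

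NOP10, a small structural protein of the box H/ACA snoRNP, was the member called in the other direction. It had 33.6, 42.6 and 31.6 RPKM in UM-UC-3 siNC, 42.0, 40.8 and 39.8 with siACAT1-1, and 35.3, 43.3 and 36.3 with siACAT1-2. The T24 levels of NOP10 were 21.2, 44.3 and 23.9 RPKM with siNC, 25.7, 51.9 and 29.1 with siACAT1-1, and 29.9, 53.6 and 35.3 with siACAT1-2. Replicate 2 was the highest of its group in every T24 group, and all groups overlapped. NOP10 moved by 0.25 ± 0.07 with the block (adjusted p = 0.033, without it 0.67). The other positive values were 0.22 ± 0.12 for IMP3, 0.11 ± 0.08 for NOC3L and 0.09 ± 0.08 for WDR43, with adjusted p of 0.28, 0.41 and 0.49 in the block model.

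Leaving out 1 library at a time kept FBL, NOP56 and BOP1 below an adjusted p of 0.05 with the block in all 18 fits. TCOF1 was called in 14 of 18 fits, IMP4 in 15, NOP10 in 9 and NPM1 in 3. The count of members called was 3 without T24 siNC replicate 1, without T24 siNC replicate 3 and without UM-UC-3 siNC replicate 1.

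The RNA polymerase I subunits had values near 0. With the block the log2 fold change was 0.00 ± 0.06 for POLR1A, the catalytic subunit, −0.05 ± 0.07 for POLR1B and 0.02 ± 0.08 for POLR1C, and none was called. None of the 3 had an unadjusted p under 0.05 in this comparison in either edgeR model. Among the 105 further ribosome biogenesis genes that were listed by name, none passed the main model or DESeq2, and 4 had an unadjusted p under 0.05 in the main model, all lower. With the block 6 were lower and 3 higher, 8.57% of the list against 12.4% of all genes. The lowest were NSA2 (−0.30, adjusted p = 0.011), a large subunit factor, and CD3EAP (−0.30, adjusted p = 0.016), an RNA polymerase I subunit. The highest were ZNF622 (0.39, adjusted p = 0.0065), which acts late on the large subunit, and RRN3 (0.30, adjusted p = 0.015), an RNA polymerase I initiation factor.

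**Figure D2:**
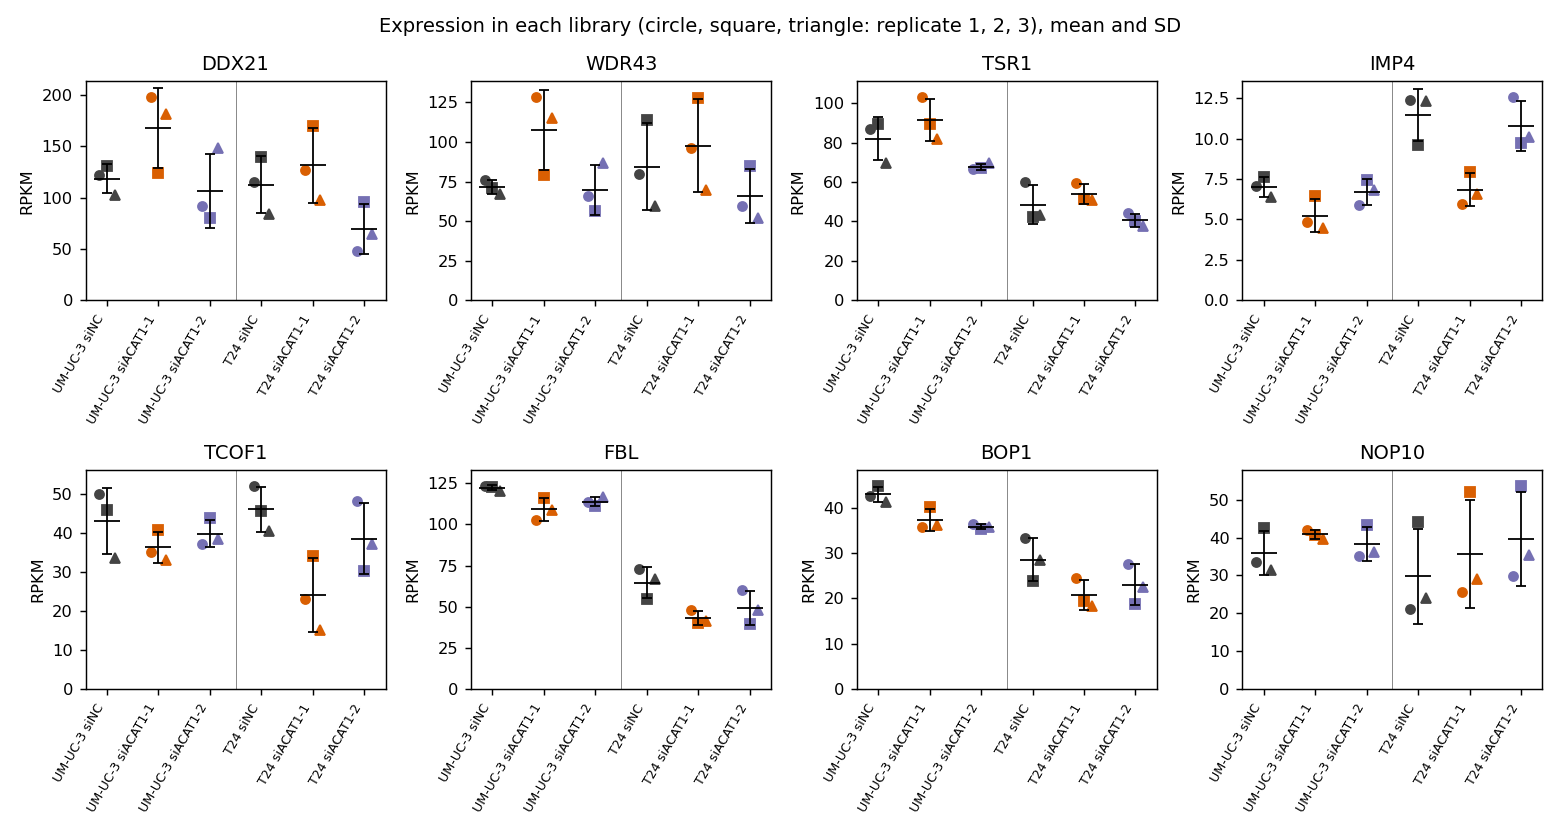
RPKM of 8 members in the 18 libraries, with the mean and SD of each group of 3 and the replicate number as the symbol; each axis starts at 0. FBL and BOP1 lie below siNC in all UM-UC-3 siACAT1 libraries, DDX21, WDR43 and TSR1 are higher with siACAT1-1 than with siACAT1-2 within each replicate number, and IMP4 and TCOF1 in T24 are low with siACAT1-1.

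The cell lines and siRNAs were then taken one by one. In UM-UC-3, siACAT1-1 gave 31 of 47 members above 0 and a median of 0.06, against −0.01 over all genes. Its sign depended on the library left out, from −0.02 without UM-UC-3 siNC replicate 3 to 0.17 without siNC replicate 2. None was called without the block, where 0.00993% of all genes were (1 member at an unadjusted p under 0.05, and 5.34% of all genes), nor by DESeq2 (0.0894%). With the block 1 member was called, WDR43, against 3.06% of all genes in either direction and 1.96% higher. WDR43, a scaffold of the small subunit processome, had 76.0, 70.8 and 67.3 RPKM with siNC and 128, 79.0 and 115 with siACAT1-1. The groups did not overlap. Of the genes with a mean of at least 1 RPKM, 6.12% were likewise higher with siACAT1-1 without overlap. WDR43 moved by 0.56 ± 0.12 with the block (adjusted p = 0.021, without it 0.93). The call was lost without UM-UC-3 siNC replicate 1 or 3 and without siACAT1-1 replicate 1 or 3.

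With siACAT1-2 in UM-UC-3, 43 of 47 members were below 0, against 50% of all genes, at a median of −0.14 (0.00 over all genes). The median was −0.23 without UM-UC-3 siNC replicate 3 and −0.08 without siNC replicate 2. The values were small, from −0.35 to 0.14, and no member was called without the block (0.0546% of all genes), with it (1.36%) or by DESeq2 (0.194%). Unadjusted, the model without the block had 1 member under 0.05 (3.86% of all genes) and that with it 7, all lower (13.4%). The replicate numbers differed: the median of the 47 genes against the siNC library of the same number was −0.31 and −0.21 in numbers 1 and 2, with 45 and 44 members lower, and 0.13 in number 3, with 16 lower. MYC in the same siACAT1-2 libraries had 13.8, 15.4 and 37.7 RPKM, against 39.5, 18.9 and 31.5 in the siNC libraries of the same numbers. Only in number 3 was MYC above siNC, as was the median of the members. With siACAT1-1 in UM-UC-3 MYC had 59.3, 21.7 and 49.8 RPKM, above siNC in each number. The median of the members against siNC was −0.07, 0.02 and 0.26 there. The part of MYC in the result was not tested.

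In T24, siACAT1-1 gave 28 of 47 members below 0 and a median of −0.08 (0.00 over all genes). This median turned from −0.18 without T24 siNC replicate 3 to 0.05 without T24 siNC replicate 1. No member was called without the block, where 0.124% of all genes were, and 6 had an unadjusted p under 0.05, all lower, against 11.5% of all genes. With the block 8 members were called, all lower, against 13.9% of all genes in either direction and 7.31% lower. They were TCOF1 (−0.95 ± 0.19), IMP4 (−0.72 ± 0.15), FBL (−0.56 ± 0.10), NHP2 (−0.49 ± 0.12), NOP56 (−0.48 ± 0.12), BOP1 (−0.45 ± 0.10), EBNA1BP2 (−0.43 ± 0.12) and NPM1 (−0.31 ± 0.09). DESeq2 called TCOF1 and IMP4 (adjusted p = 0.039 and 0.027), against 1.98% of all genes. NHP2, the RNA-binding partner of DKC1, had 56.9, 40.4 and 51.4 RPKM with siNC and 33.2, 33.7 and 36.8 with siACAT1-1, with no overlap, although 27.4% of its exonic bases lie opposite RMND5B. FBL and TCOF1 were called in all 18 fits with 1 library left out. The count was 2 without T24 siACAT1-1 replicate 1, 5 without its replicate 3, 5 without T24 siNC replicate 1 and 4 without T24 siNC replicate 3. All 3 RNA polymerase I members were above 0 in this comparison, from 0.05 to 0.27, and none was called.

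With siACAT1-2 in T24, 35 of 47 members were below 0 at a median of −0.18 (0.01 over all genes), which was −0.31 without T24 siNC replicate 3 and −0.08 without T24 siNC replicate 1. None was called without the block, where 0.268% of all genes were, or by DESeq2 (1.26%). In the unblocked model 2 had an unadjusted p under 0.05, against 8.44% of all genes. With the block 6 were called, against 8.48% of all genes, 5 of them lower (3.93% of all genes) and 1 higher (4.55%). The lower members were DDX21 (−0.70 ± 0.18), GNL3 (−0.45 ± 0.12), NOP56 (−0.38 ± 0.12), FBL (−0.38 ± 0.10) and MYBBP1A (−0.37 ± 0.10), and NOP10 was higher (0.46 ± 0.12). GNL3, or nucleostemin, is a nucleolar GTPase, and MYBBP1A is a nucleolar repressor. The count was 0 without T24 siNC replicate 1, 2 without T24 siNC replicate 3, 3 without siACAT1-2 replicate 1 or 2 and 2 without its replicate 3. FBL and NOP56 were therefore the members called with both siRNAs in T24 in the block model.

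**Figure D3:**
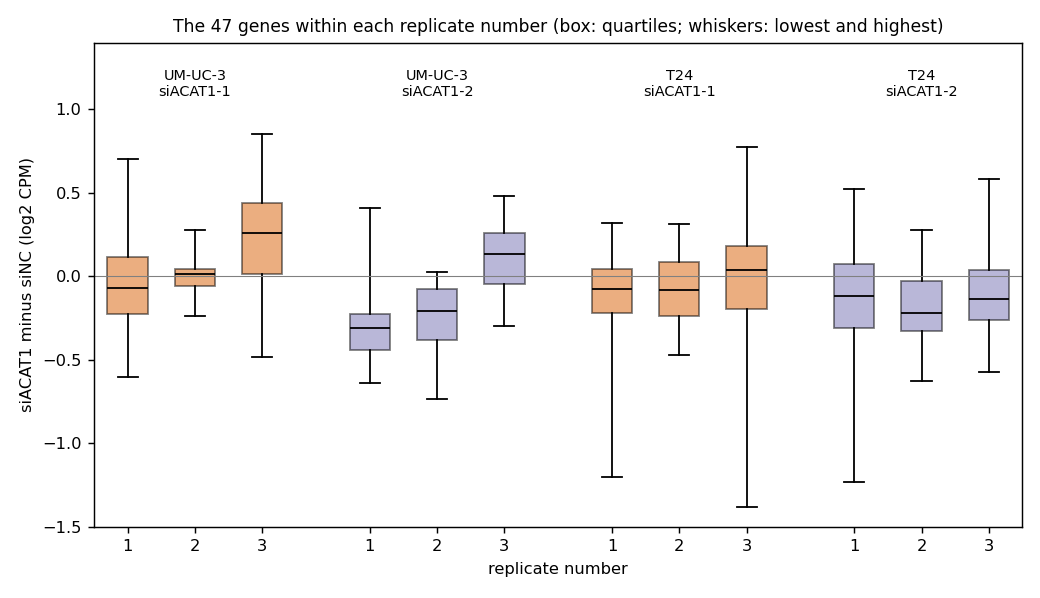
Difference in log2 CPM between each siACAT1 library and the siNC library of the same cell line and replicate number, over the 47 genes (line: median; box: quartiles; whiskers: lowest and highest gene). In UM-UC-3 siACAT1-2 the medians were −0.31, −0.21 and 0.13 for numbers 1, 2 and 3, and in T24 siACAT1-2 they were −0.12, −0.22 and −0.13.

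Whether the knockdown moved the members differently in the cell lines was tested as the difference of the mean siRNA effects, UM-UC-3 minus T24. No member was called without the block (0% of all genes, and 0 members at an unadjusted p under 0.05, against 2.57% of all genes), with it (0.104%) or by DESeq2 (0.00496%). With the block, FBL (0.32 ± 0.13) and GNL3 (0.33 ± 0.14) had an unadjusted p under 0.05 (9.46% of all genes), and their adjusted p was 0.43 and 0.48. The median difference of the members was 0.09 without the block, against 0.00 over all genes, and it ran from −0.06 without T24 siNC replicate 1 to 0.22 without T24 siNC replicate 3.

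The ACAT1 siRNAs were then compared with each other, as siACAT1-2 minus siACAT1-1 averaged over the cell lines. The difference is between siACAT1 libraries, while the siNC libraries entered the estimates of the spread and of the block. Here 1 member, DDX21, was called without the block, 2.13% of the 47 against 2.56% of all genes in either direction and 1.38% lower. DESeq2 called 5 members, DDX21, WDR43, TSR1 and HEATR1 lower and IMP4 higher, against 6.56% of all genes. With the block 18 members were called, 38.3% of the 47 against 20.6% of all genes. Of these, 15 were lower with siACAT1-2 (10.2% of all genes) and 3 were higher (10.4%). The median of the members was −0.15 in both models, against 0.01 and 0.02 over all genes, and without the block it was −0.21 without T24 siACAT1-2 replicate 1 and −0.10 without its replicate 3. The small subunit assembly group held 7 of the 15 lower members (WDR43, UTP20, TSR1, UTP15, HEATR1, PNO1 and NOP14) and 1 of the higher (IMP4). The large subunit group held 4 (DDX18, GNL3, NOC3L and RRP1B), the nucleolar scaffold group 2 (DDX21 and NOLC1), and RNA polymerase I and box H/ACA 1 each (POLR1B and DKC1). Among the 105 further genes of the pathway, 28 were lower and 5 higher in the same block model, 31.4% of the list against 20.6% of all genes.

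DDX21 (chr10:68956128-68985073) is a nucleolar RNA helicase that acts on ribosomal RNA transcription and processing. With siACAT1-1 it had 198, 124 and 182 RPKM in UM-UC-3 and 127, 169 and 97.5 in T24. With siACAT1-2 it had 91.9, 80.7 and 148 RPKM in UM-UC-3 and 48.0, 95.5 and 64.9 in T24. The siNC libraries had 122, 131 and 103 RPKM in UM-UC-3 and 115, 140 and 83.7 in T24. The siRNAs overlapped in UM-UC-3 and did not in T24, and DDX21 was lower with siACAT1-2 in 6 of 6 pairs of the same number. The difference was −0.81 ± 0.19 (adjusted p = 0.032) without the block and −0.81 ± 0.13 (adjusted p = 0.0002) with it. Without the block the call was lost when any 1 of 7 siACAT1 libraries was left out (adjusted p up to 0.10): replicates 1 and 3 of siACAT1-1 and 1 and 2 of siACAT1-2 in UM-UC-3, and replicate 1 of siACAT1-1 and 1 and 3 of siACAT1-2 in T24. With the block it held in all 18 fits.

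WDR43 had 128, 79.0 and 115 RPKM with siACAT1-1 and 66.0, 56.2 and 86.9 with siACAT1-2 in UM-UC-3. In T24 it had 96.2, 128 and 69.4 RPKM with siACAT1-1 and 59.8, 84.9 and 52.3 with siACAT1-2, so that the ranges overlapped in both lines while every pair of the same number was lower with siACAT1-2. The difference was −0.60 ± 0.09 with the block (adjusted p = 8.9e-05) and −0.61 ± 0.18 without it (adjusted p = 0.077). UTP20, a long scaffold protein of the processome, differed by −0.50 ± 0.08 (adjusted p = 0.00036, without the block 0.26), also lower in 6 of 6 pairs.

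TSR1, a late small subunit factor, had 103, 89.4 and 81.9 RPKM with siACAT1-1 and 66.5, 67.2 and 69.6 with siACAT1-2 in UM-UC-3. In T24 it had 59.5, 51.4 and 50.6 RPKM with siACAT1-1 and 44.3, 40.1 and 37.7 with siACAT1-2. The siRNAs did not overlap in either line. The difference was −0.43 ± 0.07 with the block (adjusted p = 0.00046, without it 0.082). TSR1 shares 20.8% of its exonic bases with SRR and SGSM2 on the opposite strand. NOLC1 (−0.41 ± 0.09) and HEATR1 (−0.30 ± 0.08), a transcription and processome factor of which 23.2% is shared with LGALS8 and a further gene, were likewise lower in 6 of 6 pairs. POLR1C, NCL, MYBBP1A, NAT10, NOP2, WDR12 and NIP7 were too, although none of them was called. Such pairs, and the overlap between the ACAT1 siRNAs, were not counted over all genes.

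The 3 members that were higher with siACAT1-2 were among the 8 called lower with siACAT1-1 in T24. The same T24 siACAT1-1 libraries enter both comparisons, so this is not independent evidence. Mean RPKM of TCOF1 with siACAT1-1 and siACAT1-2 was 24.1 and 38.6 in T24, and 36.3 and 39.9 in UM-UC-3. That of NHP2 was 34.6 and 49.3 in T24, and 72.8 and 80.9 in UM-UC-3. Both thus differed more in T24, which was not tested. IMP4 differed by 0.49 ± 0.10 with the block (adjusted p = 0.0025, without it 0.073) and was higher in 6 of 6 pairs. TCOF1 differed by 0.41 ± 0.13 (adjusted p = 0.031, without the block 0.28) and NHP2 by 0.30 ± 0.08 (adjusted p = 0.012, without it 0.28), each higher in 5 of 6 pairs. The box C/D genes FBL and NOP56 and the large subunit gene BOP1, called over the 4 comparisons with the block, had differences between the siRNAs of 0.10 ± 0.07, −0.02 ± 0.08 and 0.03 ± 0.07, none of which was called. MYC differed by −0.66 ± 0.16 with the block (adjusted p = 0.0058, without it 0.31) and was lower with siACAT1-2 in 6 of 6 pairs. ACAT1 itself differed by −0.62 ± 0.15 (adjusted p = 0.034). The part of either in the members' difference was not tested. Of the 15 lower members, 12 had a promoter entry and 5 of these held CACGTG; of the 3 higher, 2 had an entry and 1 held it.

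**Figure D4:**
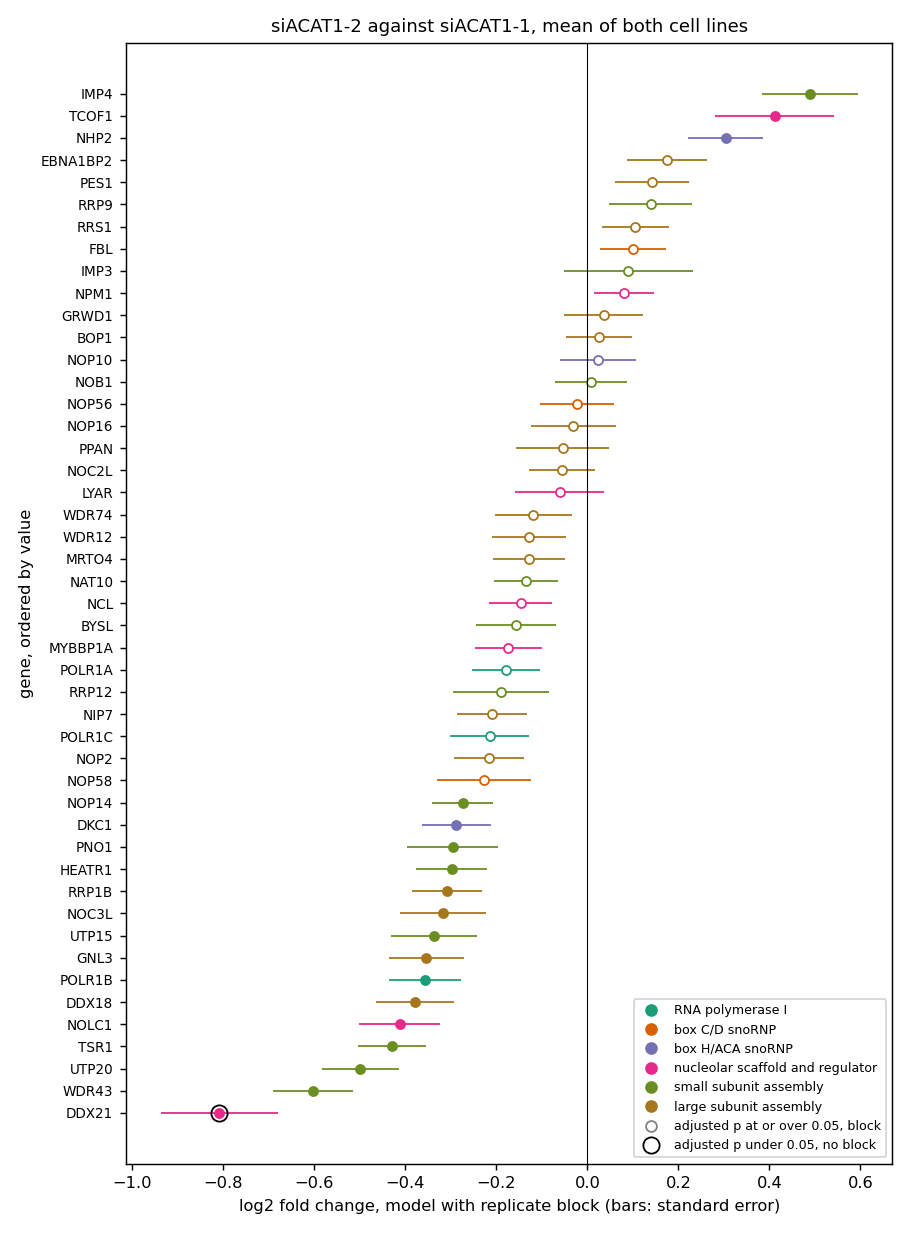
Log2 fold change of each of the 47 genes, siACAT1-2 minus siACAT1-1 over both cell lines, in the model with the replicate block; bars are standard errors, filled points have an adjusted p under 0.05 and the ringed point also without the block. The 15 filled points on the left run from DDX21 at −0.81 to NOP14 at −0.27, and NHP2, TCOF1 and IMP4 are filled on the right.

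The cell lines were compared in their siNC libraries. Without the block 18 members were called, 38.3% of the 47 against 44.3% of all genes, 9 lower in UM-UC-3 (22.3% of all genes) and 9 higher (22%). With the block 26 were called against 61.7% of all genes, 15 lower (30.2%) and 11 higher (31.6%), and DESeq2 called 22 against 46.8%. These shares lay near those of all genes and were not tested against them. In RPKM, 13 members were lower and 10 higher in UM-UC-3 without overlap of the siNC libraries. Of the genes with a mean of at least 1 RPKM, 27.85% and 24.78% were. The median of the members was −0.01, from −0.16 without T24 siNC replicate 3 to 0.11 without UM-UC-3 siNC replicate 3. The 3 RNA polymerase I members were all called higher in UM-UC-3. The 3 box H/ACA members were all above 0, from 0.13 to 0.83, with NHP2 called and, with the block, also NOP10. The other groups held members on either side of 0. With the block WDR74 was also called higher, and UTP20, IMP3, NOC3L, RRP1B, EBNA1BP2 and NIP7 lower. With 1 library left out, WDR74 was called in 9 of 18 fits, NOP10 and NOC3L in 16 each and EBNA1BP2 in 17. Of the 5 further RNA polymerase I subunits in the list of pathway genes, ZNRD1 was higher in UM-UC-3 (1.14, adjusted p = 0.00034) and TWISTNB lower (−1.67, adjusted p = 2.1e-05), while POLR1E (0.43), POLR1D (−0.20) and CD3EAP (−0.24) were not called without the block, and POLR1E was with it (adjusted p = 0.0010).

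POLR1A had 12.5, 13.2 and 10.2 RPKM in UM-UC-3 siNC and 7.15, 5.86 and 5.92 in T24 siNC, with no overlap, and was higher in UM-UC-3 by 0.96 ± 0.17 (adjusted p = 0.00018). POLR1B was higher by 0.63 ± 0.19 (adjusted p = 0.015) and POLR1C by 0.52 ± 0.18 (adjusted p = 0.023). FBL, NHP2, MYBBP1A and TSR1 were higher by 0.96 ± 0.19, 0.83 ± 0.21, 0.81 ± 0.20 and 0.79 ± 0.18. BOP1 (0.63 ± 0.19) and NPM1 (0.48 ± 0.16) were higher too.

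RRP12, an export and maturation factor of the small subunit, had 27.5, 22.5 and 24.9 RPKM in UM-UC-3 siNC and 59.7, 93.8 and 43.8 in T24 siNC. The lines did not overlap, and RRP12 was lower in UM-UC-3, with a log2 difference of −1.34 ± 0.28 (adjusted p = 0.0010). LYAR, a nucleolar regulator of cell growth, differed by −0.77 ± 0.27, BYSL by −0.74 ± 0.18 and NOP14 by −0.73 ± 0.17, of which 17.1% lies opposite NOP14-AS1. NOP58 (−0.71 ± 0.21), NOLC1 (−0.67 ± 0.23), IMP4 (−0.67 ± 0.20), NCL (−0.63 ± 0.23) and DDX18 (−0.63 ± 0.20) were also lower. The value of IMP3 was −1.02 ± 0.45, which was not called (adjusted p = 0.073, 0.00036 with the block and 0.045 by DESeq2). Within the box C/D snoRNP the lines thus differed in opposite directions for FBL and NOP58, and within the scaffold for NPM1 and NCL.

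The line calls of POLR1A, FBL, NHP2, MYBBP1A, TSR1, RRP12, BYSL and NOP14 held with each library left out. Without UM-UC-3 siNC replicate 3 the count was 10, with the calls of LYAR, NCL, NOLC1, POLR1C, DDX18, NOP58, IMP4 and NPM1 lost (adjusted p of 0.136, 0.136, 0.105, 0.088, 0.086, 0.056, 0.055 and 0.052). The calls of NCL, LYAR, NOLC1, IMP4 and DDX18 were lost without T24 siNC replicate 1 (adjusted p of 0.20, 0.10, 0.081, 0.056 and 0.086). Those of POLR1B, POLR1C, NPM1, LYAR and BOP1 were lost without T24 siNC replicate 2 (0.11, 0.13, 0.17, 0.074 and 0.11), and those of POLR1B, POLR1C, NPM1 and BOP1 without T24 siNC replicate 3 (0.064, 0.082, 0.088 and 0.068). NPM1 was also lost without UM-UC-3 siNC replicate 2 (0.067), and NCL and LYAR without replicate 1 (0.075 and 0.052).

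**Figure D5:**
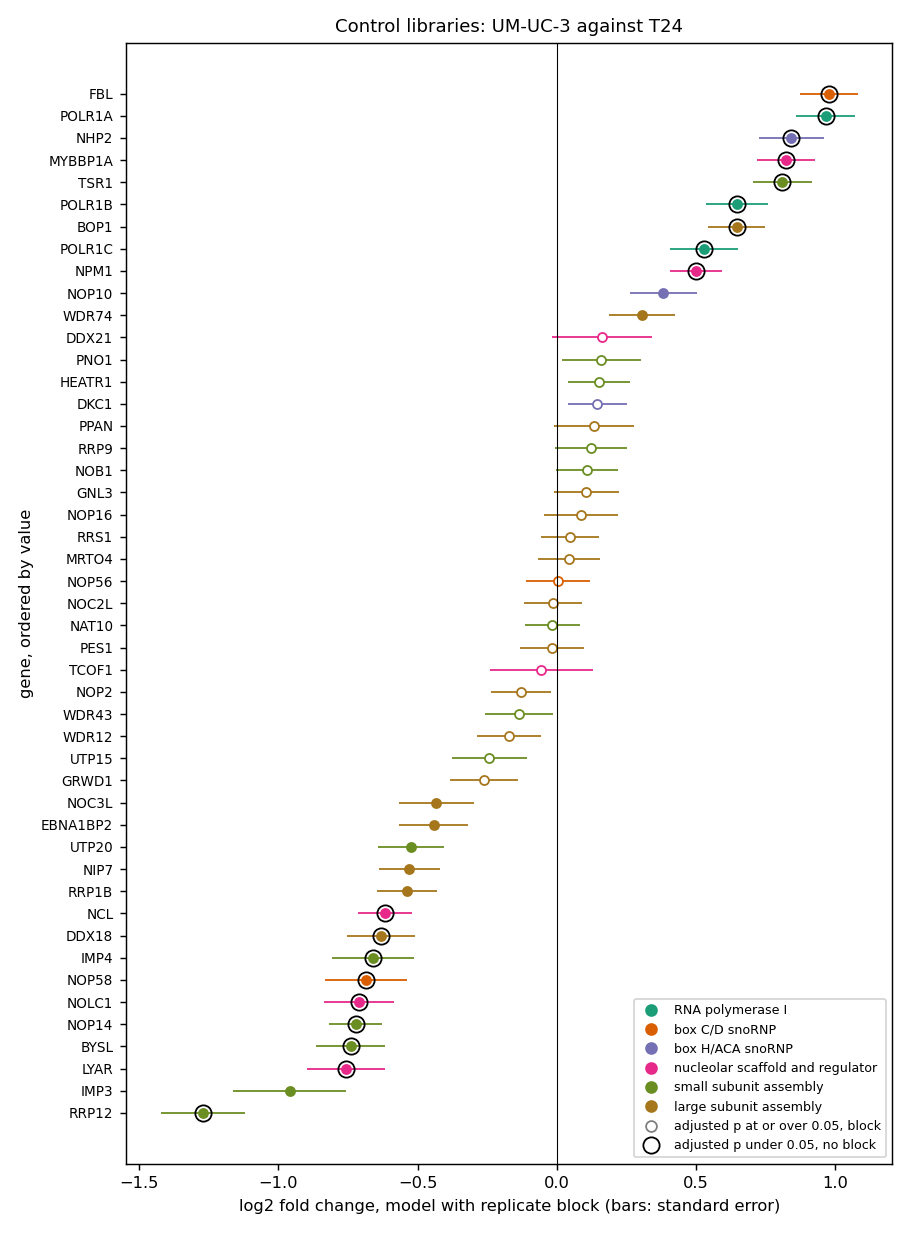
Log2 fold change of each of the 47 genes between the siNC libraries, UM-UC-3 minus T24, in the model with the replicate block; bars are standard errors, filled points have an adjusted p under 0.05 and ringed points also without the block. The values run from RRP12 at −1.27 to FBL at 0.98, and the 3 RNA polymerase I members are all on the right.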

How the data were processed

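RNA of 18 cultures was sequenced from stranded mRNA libraries with molecular identifiers. Per the submitters' processing notes, the authors used Trimmomatic 0.36, STAR 2.5.3 and featureCounts of Subread 1.5.1 on GRCh38. The annotation release, the strand setting, the handling of reads with several matches and the collapsing of identifiers are not given in the sources used here. The authors deposited raw counts per gene and RPKM. RPKM values were used as deposited to describe levels, and all tests used the deposited counts.

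The quasi-likelihood test of edgeR 4.0.16 was run under R 4.3.3, after TMM scaling and filterByExpr, with 1 mean per group over all 18 libraries and Benjamini-Hochberg adjustment over the 20144 genes tested and a threshold of 0.05. Differences are log2 fold changes with standard errors. A call is an adjusted p under this threshold. The labels number the replicates 1 to 3 in each group. Deviations from the group means correlated between libraries of the same number in every pair (r = 0.115 to 0.576 in UM-UC-3 and 0.356 to 0.686 in T24). For other numbers r ran from −0.545 to 0.269 in UM-UC-3 (median −0.11) and from −0.567 to 0.21 in T24 (median −0.404). The ranges thus overlapped in UM-UC-3. The numbers were treated as pairing the libraries. Values from a model with this replicate block within cell line stand beside the main ones wherever they change a call or a count. Alternatives were DESeq2 1.42.0, its size factors in edgeR, no filter, each cell line alone and leaving out each library. Leaving out libraries in the block model was added after the data were seen. The scripts were tested on simulated counts.

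The members and the lists were chosen with earlier results of these data known. Named members are those called in the main model, the 5 highest and lowest over the 4 comparisons, the 4 highest and lowest between the cell lines and by RPKM, the member that moved most in each role group, and TCOF1. Members called only with the block or by DESeq2 in a single comparison were named after their values were seen. Exon overlap was read from the coordinates in the count table. The number of libraries limits the precision. P-values set each difference against the spread between these cultures.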

Additional observations from a re-analysis of the deposited data

Results flagged for a closer look

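In the model with the replicate block, 18 of the 47 members (38.3%) differed between siACAT1-1 and siACAT1-2, against 20.6% of all genes. This was tested as siACAT1-2 minus siACAT1-1 over both cell lines. Without the block only DDX21 passed (log2 difference −0.81), 2.13% of the members against 2.56% of all genes. DESeq2, without the block, also called WDR43, TSR1, HEATR1 and IMP4 (adjusted p = 0.023, 0.022, 0.015 and 0.021). With DDX21 these were 10.6% of the members, against 6.56% of all genes. Lower with siACAT1-2 were WDR43 (−0.60), UTP20 (−0.50), TSR1 (−0.43), NOLC1 (−0.41), DDX18 (−0.38), POLR1B (−0.36), GNL3 (−0.35), UTP15 (−0.34), NOC3L (−0.32), RRP1B (−0.31), HEATR1 (−0.30), PNO1 (−0.30), DKC1 (−0.29) and NOP14 (−0.27). Higher with siACAT1-2 were NHP2 (0.30), TCOF1 (0.41) and IMP4 (0.49). With each library left out in turn in the block model, 13 to 20 members were called. PNO1 was called in 7 of 18 fits, TCOF1 in 10 and NOC3L in 12. The difference is between 6 libraries per siRNA, and its spread was estimated over all 18 libraries.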

How the results depend on the processing

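The replicate block raised the count of members called from 0 to 1 for siACAT1-1 in UM-UC-3, to 8 for siACAT1-1 in T24, to 6 for siACAT1-2 in T24 and to 7 over the 4 comparisons, and from 1 to 18 between the siRNAs. The share of all genes called rose too, in the same order from 0.00993% to 3.06%, 0.124% to 13.9% and 0.268% to 8.48%. It rose from 0.223% to 12.4% over the 4 comparisons and from 2.56% to 20.6% between the siRNAs. DESeq2 called 2 members for siACAT1-1 in T24 (1.98% of all genes) and 5 between the siRNAs (6.56%). Without a filter on low counts the counts of members were 1 and 2. With 1 library left out, counts without the block ranged from 0 to 1 for siACAT1-1 in T24, from 0 to 3 between the siRNAs and from 10 to 21 between the cell lines. With the block they ranged from 0 to 2 for siACAT1-1 in UM-UC-3, from 2 to 9 and from 0 to 8 for siACAT1-1 and siACAT1-2 in T24, and from 3 to 8 over the 4 comparisons. Without the block, DESeq2 size factors in edgeR moved none of the 8 counts by over 1.5 times, nor did fitting each cell line alone for the 4 comparisons of 1 siRNA with siNC, where the counts stayed at 0; neither was run with the block. Over the 4 comparisons the signs of POLR1B (−0.139 to 0.0393), PES1 (−0.0125 to 0.0916), WDR43 (−0.0101 to 0.206) and NOC3L (−0.00513 to 0.165) depended on the library left out, and none of these values was called. Without the filter POLR1B, POLR1C and NPM1 were not called between the cell lines (adjusted p = 0.080, 0.18 and 0.13). The causes were not tested. The E-box count of 16 members compared with 10 for TGCGCA in the same windows.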
